A study of Mus musculus with 7 samples.

Results

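The genes described here build bile acids in the liver and carry bile acids and other solutes between blood and bile. They were picked by symbol and known function, with earlier results of these data known, so the list as a whole was not tested. They are 39 of the 56691 genes in the count table. The filter on low counts kept 37 of them among the 13683 genes that were tested, and the untested members were Cyp46a1 and Slc51b. Liver RNA was sequenced from male C57BL/6J mice, an inbred laboratory strain, that were 8 weeks old when bought and were then housed for 2 weeks. In the LPS group (n = 3) the mice had received 10 mg/kg of lipopolysaccharide (LPS), a part of the outer membrane of Gram-negative bacteria, by intraperitoneal injection, and were killed 24 h later. The control group (n = 4) received no LPS. What the control mice were injected with and the time of day at killing are not given in the sources used here. The study kept 6 mice in each group, and the labels do not tie each library to a mouse by more than its number, so the p-values measure the spread between libraries, each taken as 1 mouse. The control libraries held 14991022, 15096573, 15721944 and 18584140 counts (replicates 1 to 4), and the LPS libraries 20500391, 17095607 and 17821331 (replicates 1 to 3). LPS replicates 2 and 3 resembled each other more than any other pair within a group: the SD of the log2 ratio was 0.10 between them, over 1729 genes with more than 2000 counts in the pair, and between 0.29 and 0.58 for the other pairs.

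Hepatocytes turn cholesterol into bile acids along a classic pathway that opens with Cyp7a1 and an alternative pathway that opens with Cyp27a1, then shorten the side chain in peroxisomes and couple the product to an amino acid. Carriers of the basolateral membrane take bile acids back from portal blood, ATP-driven pumps of the canalicular membrane move bile acids, phospholipid and sterols into bile, and further pumps return solutes to blood. The nuclear receptor FXR, encoded by Nr1h4, and the intestinal hormone FGF15, received by Fgfr4 with its partner Klb, are known as brakes on synthesis.

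Most of the tested members were lower in the LPS mice. At an adjusted p below 0.05 (edgeR's quasi-likelihood test, with the Benjamini-Hochberg adjustment over all tested genes), 25 of 37 members fell, where 1773 of all 13683 tested genes, or 13%, did. In this test 1 member rose, Acox2, against 1825 of all tested genes, or 13.3%. Of the 37 members, 16 fell with a log2 fold change (log2 of the LPS level over the control level) below -1, a limit passed on the lower side by 7.31% of all tested genes. The median log2 fold change was -0.97 over the 37 members and -0.01 over all tested genes. In 26 members each LPS mouse lay below each control mouse in CPM (a gene's counts brought to a common library size with edgeR's TMM scaling factors), which held for 17.4% of all tested genes. The reverse order, each LPS mouse above each control mouse, was seen in 3 members and in 18.1% of all tested genes. With total counts and no scaling factors the median of all genes shifted to -0.13, the median of the members to -1.10, and the split over all genes from 1825 higher and 1773 lower to 1350 higher and 2057 lower, while the same 25 members fell. Of these 25, 20 passed the test in each of 15 refits with another tool, scaling, filter, block, set of mice or with LPS replicates 2 and 3 summed, and Amacr, Slc27a5, Slco1b2, Slco2b1 and Abcb4 missed it in at least 1. The library is of whole liver tissue, in which fewer hepatocytes and less of an RNA in each hepatocyte cannot be told apart.

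**Figure D1:**
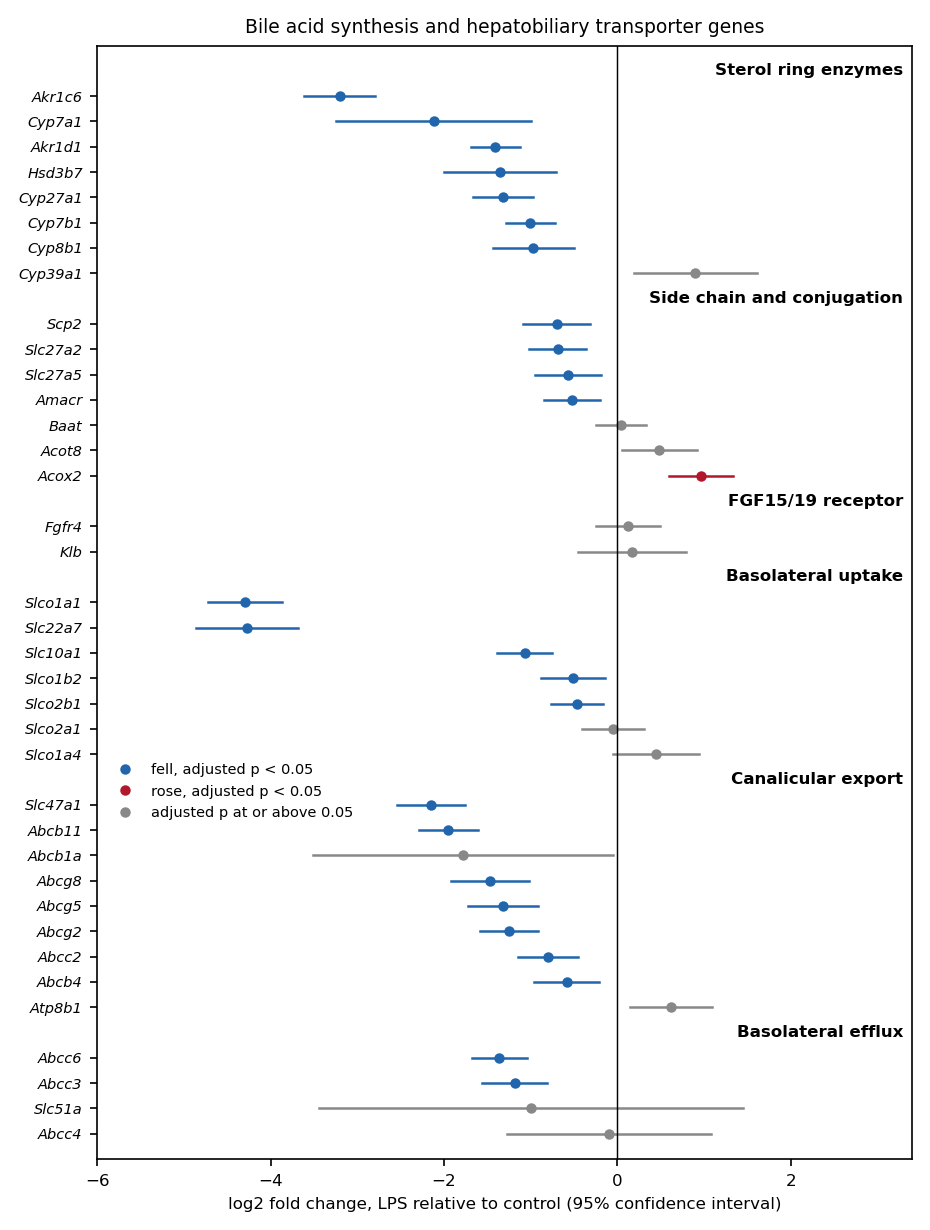
Log2 fold change of each of the 37 tested members (LPS relative to control, horizontal axis), by function, with the 95% confidence interval as a line. Blue marks the 25 members that fell, red Acox2, which rose, and grey the 11 members that did not pass the test.

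Taken as a share of the library, transcripts of the 39 members made up 1.30%, 1.42%, 1.66% and 1.66% of the counts in control replicates 1 to 4 and 0.757%, 0.751% and 0.728% in LPS replicates 1 to 3. Their summed level was 13774, 13523, 15925 and 14896 CPM in the controls and 7153, 8268 and 8073 CPM in the LPS mice. The groups did not overlap in either measure. Scp2 gave the most counts in both groups, and without it the mean sum was 9267 CPM in controls and 4590.4 CPM in LPS mice.

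The enzymes that act on the sterol ring or start the alternative pathway fell almost throughout. Of 9 such genes 8 were tested and 7 fell (87.5%, against 13% of all tested genes). The median log2 fold change of the 8 was -1.34. The summed level of the 9 genes was 2239, 2577, 2853 and 2779 CPM in the controls and 708, 665 and 665 CPM in the LPS mice. All LPS mice were far below the lowest control. Akr1c6 was the highest of these genes in controls, and without it the mean sum was 1168 CPM in controls and 523 CPM in LPS mice. Cyp7a1, the rate-limiting enzyme of the classic pathway, had 54.0, 55.0, 27.6 and 65.9 CPM in control replicates 1 to 4 and 24.9, 5.41 and 4.05 CPM in LPS replicates 1 to 3. Each LPS mouse was below each control, but LPS replicate 1 lay just under control replicate 3 and well above the other LPS mice. The decrease was 4.35-fold (log2 fold change -2.12, SE 0.52, edgeR adjusted p = 0.00934). Without LPS replicate 1 the log2 fold change was -3.42 (edgeR adjusted p = 2.61e-05), and without any other mouse it lay between -2.32 and -1.72. Cyp8b1, the hydroxylase that steers the pathway towards cholic acid, had 196, 234, 142 and 299 CPM in controls and 107, 106 and 122 CPM in LPS mice. The lowest control stood above the highest LPS mouse. Cyp8b1 was 1.96-fold lower (log2 fold change -0.97, SE 0.22, edgeR adjusted p = 0.00547).

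The alternative pathway moved the same way. Cyp27a1, the mitochondrial hydroxylase that opens it, had 381, 529, 477 and 529.5 CPM in controls and 201, 187 and 186 CPM in LPS mice, with no overlap (log2 fold change -1.32, SE 0.16, edgeR adjusted p = 5.73e-05). Cyp7b1, which hydroxylates the oxysterols made by Cyp27a1, was at 223, 227, 238 and 229.8 CPM in controls and 114, 119 and 110.2 CPM in LPS mice. Both groups were tight, and the decrease was 2.01-fold (log2 fold change -1.004, SE 0.13, edgeR adjusted p = 0.000102). Cyp39a1, another oxysterol hydroxylase, did not follow: it had 5.52, 13.2, 21.8 and 18.5 CPM in controls and 26.8, 32.1 and 24.1 CPM in LPS mice. Each LPS mouse was above each control, with control replicate 1 lowest, and the difference did not pass the threshold (log2 fold change 0.90, SE 0.33, edgeR adjusted p = 0.0602). It did pass with DESeq2 (adjusted p = 0.0328), without control replicate 1 (log2 fold change 0.63, edgeR adjusted p = 0.0361) and without control replicate 3 (1.14, edgeR adjusted p = 0.0190). Cyp46a1, a cholesterol hydroxylase known mainly from brain, was near the limit of detection, at 4, 8, 2 and 29 counts in the controls and 0 in each LPS mouse, and was not tested.

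Further steps on the ring are carried out by Hsd3b7, Akr1d1 and Akr1c6. Akr1c6, an aldo-keto reductase of steroids, had 1198, 1350.2, 1769 and 1459 CPM in controls and 169, 146 and 154 CPM in LPS mice. No value of one group came near the other, and the decrease was 9.22-fold (log2 fold change -3.20, SE 0.19, edgeR adjusted p = 1.26e-07). Per kilobase of exon, Akr1c6 was the highest of the ring enzymes in controls, at 710.4 ± 119 CPM per kb against 221 ± 32.1 for Cyp27a1 (SD, n = 4). In LPS mice the order of the pair was the reverse, at 77.1 ± 5.74 and 88.2 ± 3.84 CPM per kb (SD, n = 3). Akr1d1, which reduces the double bond of the ring, had 169, 159, 171 and 167 CPM in controls and 61.3, 65.3 and 62.0 CPM in LPS mice. Both groups were tight and far apart, and the decrease was 2.65-fold (log2 fold change -1.41, SE 0.13, edgeR adjusted p = 5.76e-06). Hsd3b7, which moves that double bond into place, was low in both groups, at 10.5, 8.39, 5.38 and 8.13 CPM in controls and 3.73, 3.54 and 2.18 CPM in LPS mice. The groups did not overlap (log2 fold change -1.36, SE 0.30, edgeR adjusted p = 0.00500). Akr1c6 lies in a row of related genes, between Akr1c12 and Akr1c20, and reads that fit several of them could have been lost or shared in counting.

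**Figure D2:**
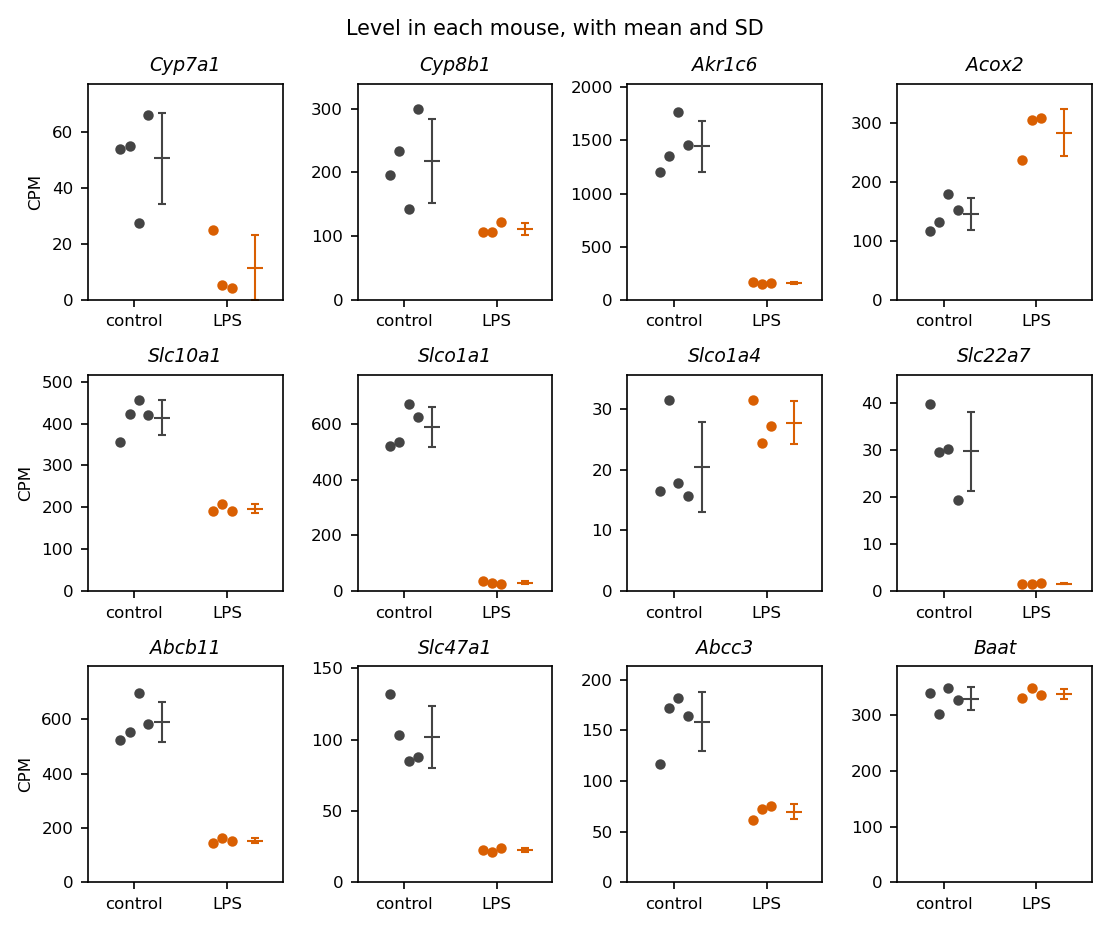
CPM of 12 members in each mouse (vertical axes, linear and starting at 0; grey, control, n = 4; orange, LPS, n = 3), with mean and SD beside the points. Slco1a1 and Slc22a7 are near 0 in the LPS mice, LPS replicate 1 is the highest LPS mouse for Cyp7a1, Acox2 is higher in the LPS mice, and the groups overlap for Slco1a4 and Baat.

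Genes for shortening the side chain and for conjugation fell by less, and 1 of them rose. Of the 7 tested, 4 fell (57.1%, against 13% of all tested genes) and 1 rose (14.3%, against 13.3%, so close to that share). The median log2 fold change was -0.52, and none fell beyond a log2 fold change of -1 (-0.70 at the lowest, for Scp2). Without LPS replicate 1 or LPS replicate 2 the number that fell was 2. Slc27a2, an acyl-CoA synthetase that can activate bile acid precursors, had 1268, 1228, 1455 and 1419 CPM in controls and 785, 864 and 849 CPM in LPS mice. There was no overlap (log2 fold change -0.69, SE 0.15, edgeR adjusted p = 0.00474). Scp2, whose longer product is the peroxisomal thiolase of the last cleavage step, had 5657, 4583, 5587 and 5223 CPM in controls and 2811, 3522 and 3391 CPM in LPS mice. The LPS mice were lower throughout (log2 fold change -0.70, SE 0.18, edgeR adjusted p = 0.0116), and per kilobase Scp2 was the most abundant of all 39 members in both groups, at 1513 ± 141 and 932 ± 109 CPM per kb (SD, n = 4 and n = 3). Amacr, the racemase that readies the side chain for oxidation, was at 124, 118, 130.3 and 122 CPM in controls and 69.3, 91.5 and 97.1 CPM in LPS mice (log2 fold change -0.52, SE 0.15, edgeR adjusted p = 0.0207). LPS replicate 1 was the lowest, and the call was lost without it (log2 fold change -0.39, edgeR adjusted p = 0.0882) and without LPS replicate 2 (-0.57, edgeR adjusted p = 0.0615). Slc27a5, the ligase that joins bile acids to coenzyme A, had 498, 671, 722 and 691 CPM in controls and 354, 474 and 478 CPM in LPS mice (log2 fold change -0.57, SE 0.18, edgeR adjusted p = 0.0325). Control replicate 1 came close to the upper LPS mice, and the call held in only 1 of 7 fits that left out a mouse, the one without control replicate 1 (log2 fold changes -0.68 to -0.44 over the 7 fits).

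Acox2, the oxidase that takes the first step of side chain shortening, was the member that rose. It had 117, 131, 179.9 and 152 CPM in controls and 237, 304 and 308 CPM in LPS mice, so the lowest LPS mouse was above the highest control. The increase was 1.95-fold (log2 fold change 0.96, SE 0.17, edgeR adjusted p = 0.00120), with 0.87 to 1.08 over the fits that left out a mouse. Acot8, a peroxisomal thioesterase, had 10.3, 6.63, 9.17 and 7.55 CPM in controls and 11.3, 12.1 and 11.8 CPM in LPS mice. Its groups did not overlap either, but it did not pass the test (log2 fold change 0.48, SE 0.20, edgeR adjusted p = 0.0921). Baat, which couples bile acids to taurine or glycine, had 339.5, 301, 349 and 326 CPM in controls and 329.9, 348 and 335 CPM in LPS mice. The LPS values lay inside the range of the controls, with a log2 fold change of 0.04 (95% confidence interval -0.25 to 0.33, edgeR adjusted p = 0.868) that turned to -0.08 with total counts. Per kilobase Baat and Slc27a5 did not differ beyond their spread in LPS mice, at 174 ± 4.85 and 179 ± 28.9 CPM per kb (SD, n = 3), where Slc27a5 had been the higher in controls, at 265 ± 41.3 against 169 ± 10.7 CPM per kb (SD, n = 4).

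The receptor for FGF15 did not pass the test in either of its parts. Fgfr4, the kinase, had 20.7, 14.7, 18.0 and 20.03 CPM in controls and 17.5, 20.4 and 22.3 CPM in LPS mice, and the groups overlapped (log2 fold change 0.12, SE 0.17, edgeR adjusted p = 0.640). Klb, its obligate partner, had 5.17, 5.93, 10.3 and 11.5 CPM in controls and 9.17, 11.1 and 7.66 CPM in LPS mice, also overlapping (log2 fold change 0.17, SE 0.29, edgeR adjusted p = 0.708). Neither passed at an unadjusted p below 0.05 or with DESeq2. The 95% confidence intervals of the log2 fold changes, -0.24 to 0.49 and -0.45 to 0.80, reach neither 1 nor -1. Fgf15 had 0 counts in all 7 libraries, in which 3 counts would have been at most 0.212 CPM.

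Uptake carriers of the basolateral membrane differed widely among themselves. Of 7 tested, 5 fell (71.4%, against 13% of all tested genes), but the log2 fold changes ran from -4.29 to 0.45. The summed level was 1886, 2227, 2568 and 2418 CPM in controls and 1112, 1159 and 1121 CPM in LPS mice, which did not overlap. Without Slco1b2, the highest of these carriers in controls, the mean sum was 1220 CPM in controls and 393 CPM in LPS mice. Slco1a1, an organic anion carrier that works without sodium, had 521, 535, 673 and 626 CPM in controls and 36.4, 27.3 and 26.2 CPM in LPS mice. All LPS mice were far under all controls, and the decrease was 19.6-fold (log2 fold change -4.29, SE 0.20, edgeR adjusted p = 1.69e-08). Slc22a7, an organic anion carrier of another family, had 40.0, 29.7, 30.2 and 19.5 CPM in controls and 1.57, 1.42 and 1.62 CPM in LPS mice, from counts of 565, 470, 494 and 402 down to 34, 22 and 26. The groups were again far apart, with a decrease of 19.3-fold (log2 fold change -4.27, SE 0.27, edgeR adjusted p = 2.55e-07). Slc10a1, the sodium-driven carrier that brings most conjugated bile acids into hepatocytes, fell by less. Its level was 356, 423, 456 and 421 CPM in controls and 192, 208 and 190.4 CPM in LPS mice, a 2.10-fold decrease without overlap (log2 fold change -1.07, SE 0.14, edgeR adjusted p = 0.000147).

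The remaining carriers moved little. Slco1b2, the main sodium-independent carrier of unconjugated bile acids and bilirubin in mouse liver, had 805, 1041, 1211 and 1161 CPM in controls and 727, 753 and 734 CPM in LPS mice (log2 fold change -0.52, SE 0.17, edgeR adjusted p = 0.0411). Control replicate 1 was close to the LPS mice, and the call held only in the fit without it among the 7 that left out a mouse (log2 fold changes -0.63 to -0.45). Slco2b1, a carrier of steroid sulfates, had 94.6, 115, 103 and 111 CPM in controls and 69.6, 82.7 and 78.9 CPM in LPS mice (log2 fold change -0.46, SE 0.14, edgeR adjusted p = 0.0269), and passed in 3 of those 7 fits (-0.52 to -0.39), failing without control replicate 4 or any 1 of the LPS mice (edgeR adjusted p of 0.0570 to 0.101). Without both of these carriers 3 of the 7 fell, which was the count without control replicate 4 or without any 1 LPS mouse. Slco2a1, a prostaglandin carrier, had 53.2, 51.2, 77.3 and 64.1 CPM in controls and 54.3, 61.8 and 62.0 CPM in LPS mice. Its groups overlapped (log2 fold change -0.05, SE 0.16, edgeR adjusted p = 0.857). Slco1a4, next to Slco1a1 on the chromosome and close to it in sequence, had 16.6, 31.4, 17.8 and 15.7 CPM in controls and 31.5, 24.4 and 27.3 CPM in LPS mice. Control replicate 2 was as high as the highest LPS mouse and the other controls were below all LPS mice, so the groups overlapped and the test was not passed (log2 fold change 0.45, SE 0.23, edgeR adjusted p = 0.178). Without control replicate 2 the log2 fold change was 0.72 (edgeR adjusted p = 0.00950). Per kilobase, Slco1a1 stood above Slco1a4 in controls, at 112 ± 13.8 against 3.18 ± 1.16 CPM per kb (SD, n = 4), and in LPS mice the values were 5.68 ± 1.06 and 4.32 ± 0.554 CPM per kb (SD, n = 3), with ranges of 1 SD that overlap.

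At the canalicular membrane 7 of 9 tested genes fell (77.8%, against 13% of all tested genes), with a median log2 fold change of -1.32. Summed levels were 1374, 1379, 1768 and 1464 CPM in controls and 603, 683 and 673 CPM in LPS mice, again without overlap. Without Abcb11, the highest of these genes in controls, the mean sum was 907 CPM in controls and 500.2 CPM in LPS mice. Abcb11, the bile salt export pump, had 525, 554, 695 and 582 CPM in controls and 144, 162 and 152 CPM in LPS mice. The highest LPS mouse was far below the lowest control, and the decrease was 3.86-fold (log2 fold change -1.95, SE 0.16, edgeR adjusted p = 1.76e-06). Per kilobase Abcb11 was the most abundant canalicular transporter in both groups, but its distance to Abcc2 narrowed from 114 ± 14.5 against 37.3 ± 6.64 CPM per kb in controls (SD, n = 4) to 29.7 ± 1.80 against 21.4 ± 0.672 CPM per kb in LPS mice (SD, n = 3). Slc47a1, which exchanges organic cations for protons at this membrane, had 132, 103, 84.9 and 87.7 CPM in controls and 23.0, 21.6 and 24.2 CPM in LPS mice. The LPS mice were nearly equal, and the decrease was 4.45-fold (log2 fold change -2.15, SE 0.18, edgeR adjusted p = 2.44e-06). Abcc2, the pump for bilirubin glucuronides and other conjugates, had 292, 270.2, 399 and 311 CPM in controls and 179, 179 and 189 CPM in LPS mice, with no overlap (log2 fold change -0.80, SE 0.16, edgeR adjusted p = 0.00268). Abcg2, a pump for sulfated steroids and drugs, had 146, 126, 175 and 144 CPM in controls and 56.5, 68.7 and 62.1 CPM in LPS mice, likewise apart (log2 fold change -1.25, SE 0.15, edgeR adjusted p = 7.49e-05).

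Abcg5 and Abcg8 encode the subunits of the pump that exports sterols into bile. Abcg5 had 62.3, 75.8, 70.1 and 51.4 CPM in controls and 19.9, 29.1 and 29.3 CPM in LPS mice (log2 fold change -1.32, SE 0.19, edgeR adjusted p = 0.000214). Abcg8 had 37.9, 64.8, 70.4 and 49.7 CPM in controls and 17.6, 21.3 and 21.4 CPM in LPS mice (log2 fold change -1.47, SE 0.21, edgeR adjusted p = 0.000216). For both genes LPS replicate 1 was the lowest mouse and all LPS mice were below all controls. Abcb4, the floppase that supplies phosphatidylcholine to bile, had 136, 148, 203 and 192 CPM in controls and 102, 112 and 126 CPM in LPS mice (log2 fold change -0.58, SE 0.17, edgeR adjusted p = 0.0236), and passed in 3 of 7 fits that left out a mouse (-0.68 to -0.49), failing without control replicate 4 or any 1 LPS mouse (edgeR adjusted p of 0.0504 to 0.0943). Atp8b1, the flippase that draws phospholipids back to the inner leaflet, had 41.3, 34.5, 68.6 and 44.3 CPM in controls and 60.1, 87.9 and 69.97 CPM in LPS mice. Control replicate 3 lay inside the LPS range, and the threshold was missed narrowly (log2 fold change 0.62, SE 0.22, edgeR adjusted p = 0.0522). It was passed with DESeq2 (adjusted p = 0.0337), without control replicate 3 (log2 fold change 0.86, edgeR adjusted p = 0.00254) and without LPS replicate 1 (0.75, edgeR adjusted p = 0.0432). Abcb1a, a drug efflux pump, was barely expressed, at 21, 19, 13 and 46 counts in controls and 10, 12 and 0 counts in LPS mice, and did not pass the test (log2 fold change -1.78, SE 0.80, edgeR adjusted p = 0.122). Its log2 fold change was -2.50 without LPS replicate 2 and -1.22 without LPS replicate 3. Its neighbours on the chromosome are Abcb1b and then Abcb4, and Abcb1b was also low, at 1.203, 1.07, 1.71 and 0.629 CPM in controls and 0.737, 0.644 and 0.436 CPM in LPS mice (log2 fold change -0.91, SE 0.56, edgeR adjusted p = 0.268, chosen after its values were seen).

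Basolateral efflux is a route by which bile acids and conjugates can return to blood. Of its 5 member genes 4 were tested and 2 fell (50%, against 13% of all tested genes). None rose at an adjusted or an unadjusted p below 0.05 with edgeR, or at an adjusted p below 0.05 with DESeq2. Only 13.3% of all tested genes rose at the adjusted p with edgeR, so 0 of 4 says little. Abcc3, a pump for glucuronides and bile acids, had 116, 171, 182 and 164 CPM in controls and 61.3, 72.0 and 75.6 CPM in LPS mice. The groups did not overlap (log2 fold change -1.19, SE 0.17, edgeR adjusted p = 0.000292). Abcc6, an organic anion pump linked to release of ATP from hepatocytes, had 118, 107, 92.1 and 93.4 CPM in controls and 41.8, 39.1 and 38.9 CPM in LPS mice, also without overlap (log2 fold change -1.36, SE 0.14, edgeR adjusted p = 1.97e-05). The other efflux genes were close to the limit of detection in both groups. Abcc4, another pump for bile acids and conjugates, had 14, 21, 17 and 69 counts in controls and 50, 21 and 17 counts in LPS mice, and the difference did not pass (log2 fold change -0.10, SE 0.54, edgeR adjusted p = 0.923), with a log2 fold change of 0.49 without control replicate 4 and -0.48 without LPS replicate 1. The subunits of the heteromeric bile acid exchanger, Slc51a and Slc51b, had 2, 18, 1 and 18 and 6, 4, 9 and 12 counts in controls and 2, 12 and 0 and 6, 6 and 0 counts in LPS mice. A change in Slc51a (log2 fold change -0.99, SE 1.13, edgeR adjusted p = 0.568, 95% confidence interval -3.44 to 1.45) did not pass the test, and its value rested on single mice: it was -3.28 without LPS replicate 2 and -0.42 without LPS replicate 3, and without control replicate 2 or 4 it missed the filter. Slc51b was not tested. Outside the members, Abcc1, a basolateral efflux pump of the Abcc family chosen after its values were seen, was higher in each LPS mouse, at 0.920, 1.96, 0.794 and 0.968 CPM in controls and 4.61, 2.13 and 3.80 CPM in LPS mice (log2 fold change 1.599, SE 0.44, edgeR adjusted p = 0.0185). Its call was lost without LPS replicate 1 (log2 fold change 1.35, edgeR adjusted p = 0.0863) or LPS replicate 3 (1.54, edgeR adjusted p = 0.0688).

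Around the members, 10 of 24 tested other genes of bile acid synthesis and modification fell (41.7%, against 13% of all tested genes). In the same list 3 rose (12.5%, against 13.3%), a share close to that of all tested genes. The median log2 fold change of the list was -0.37. Sult2a8, a sulfotransferase that acts on bile acids in mouse liver, had 1387, 1351, 1631 and 1423 CPM in controls and 77.3, 57.7 and 65.2 CPM in LPS mice (log2 fold change -4.44, SE 0.19, edgeR adjusted p = 1.09e-08). Cyp3a11, an oxidase of steroids, bile acids and drugs, had 2988, 3349, 4177 and 3002 CPM in controls and 178, 112 and 96.5 CPM in LPS mice (log2 fold change -4.71, SE 0.27, edgeR adjusted p = 1.10e-07). Acaa1b, a peroxisomal thiolase, had 637, 763, 518 and 650.0 CPM in controls and 56.7, 41.4 and 50.9 CPM in LPS mice (log2 fold change -3.69, SE 0.20, edgeR adjusted p = 5.10e-08). All were far below their controls without overlap. A steep rise was that of Acnat2, a paralog of Baat encoding an acyltransferase that joins fatty acids to taurine, from 4.03, 6.44, 3.61 and 2.13 CPM in controls to 128, 163 and 162 CPM in LPS mice (log2 fold change 5.23, SE 0.29, edgeR adjusted p = 6.19e-08). Acnat1, which lies beside Baat and was chosen after its values were seen, had 17.4, 18.4, 20.3 and 22.1 CPM in controls and 29.7, 24.2 and 21.4 CPM in LPS mice (log2 fold change 0.36, SE 0.16, edgeR adjusted p = 0.122). Redox partners of the cytochromes P450 were also singled out after their values were seen. Por, which feeds electrons to the enzymes of the endoplasmic reticulum, had 37.4, 54.8, 83.4 and 75.5 CPM in controls and 199.6, 275 and 277 CPM in LPS mice (log2 fold change 1.99, SE 0.24, edgeR adjusted p = 6.01e-05), and Fdx1, which serves the mitochondrial Cyp27a1, had 106, 88.8, 73.6 and 78.8 CPM and 29.8, 31.2 and 31.3 CPM (log2 fold change -1.50, SE 0.16, edgeR adjusted p = 1.84e-05). Fdxr, the reductase that feeds Fdx1, had 21.6, 19.7, 12.0 and 13.4 CPM in controls and 13.5, 12.6 and 11.02 CPM in LPS mice, which overlapped, and did not pass the test (log2 fold change -0.42, SE 0.22, edgeR adjusted p = 0.182). Ch25h, a cholesterol hydroxylase and the other gene to rise, was chosen after its values were seen as well. It had 0, 0, 2 and 2 counts in controls and 78, 44 and 19 counts in LPS mice (log2 fold change 5.27, SE 0.79, edgeR adjusted p = 0.000345). Cyp2c70, which makes the muricholic acids of mice and was picked in the same way, had 822, 819.6, 1759 and 1069 CPM in controls and 170.0, 191 and 184 CPM in LPS mice (log2 fold change -2.62, SE 0.27, edgeR adjusted p = 1.41e-05).

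Among 26 tested regulators of these genes 5 fell (19.2%, against 13% of all tested genes) and 4 rose (15.4%, against 13.3%), with a median log2 fold change of 0.17. Nr1h4 had 158, 114, 104 and 132 CPM in controls and 157, 150.5 and 141 CPM in LPS mice, which overlapped (log2 fold change 0.24, SE 0.16, edgeR adjusted p = 0.313). Nr0b2, the repressor SHP that FXR induces, had 31.1, 34.7, 18.1 and 21.05 CPM in controls and 13.7, 17.5 and 14.1 CPM in LPS mice (log2 fold change -0.80, SE 0.23, edgeR adjusted p = 0.0204). The highest LPS mouse was just below control replicate 3, and the call was lost without control replicate 2, LPS replicate 1 or LPS replicate 3 (edgeR adjusted p = 0.0579, 0.0708 and 0.0840). Hnf4a, a nuclear receptor on which many liver genes depend, had 258, 256, 376 and 347 CPM in controls and 422, 578 and 552 CPM in LPS mice (log2 fold change 0.74, SE 0.18, edgeR adjusted p = 0.00960). It was higher in each LPS mouse than in each control, and the call was lost without LPS replicate 2 (edgeR adjusted p = 0.0581), without LPS replicate 3 (edgeR adjusted p = 0.0506) or with the pair summed (edgeR adjusted p = 0.0533). Nr5a2, the receptor LRH-1 that drives Cyp7a1 and Cyp8b1, had 37.0, 46.7, 56.8 and 61.5 CPM in controls and 51.0, 74.0 and 73.1 CPM in LPS mice, with overlap (log2 fold change 0.39, SE 0.19, edgeR adjusted p = 0.167). The coactivator gene Ppargc1a had 3.82, 2.71, 5.01 and 3.58 CPM in controls and 9.49, 19.8 and 18.9 CPM in LPS mice, all higher (log2 fold change 2.08, SE 0.29, edgeR adjusted p = 0.000168). Nr1i3, the receptor CAR, was at 74.4 ± 9.35 CPM in controls and fell to 41.2 ± 1.91 CPM in LPS mice (SD, edgeR adjusted p = 0.000807). Foxa3 and Cebpb, which encode liver transcription factors, rose 1.85-fold (edgeR adjusted p = 0.00285) and 1.897-fold (edgeR adjusted p = 0.00299). The other regulators that fell, named after their values were seen, were Cebpa (log2 fold change -0.53, SE 0.14, edgeR adjusted p = 0.0127), Foxa1 and Onecut1. The call of Cebpa was lost without LPS replicate 2 (edgeR adjusted p = 0.0545) or LPS replicate 3 (edgeR adjusted p = 0.0553), and those of Foxa1 and Onecut1 without any 1 LPS mouse (edgeR adjusted p of 0.111 to 0.112 and 0.0604 to 0.0819), so that without LPS replicate 1, 2 or 3 the number of regulators that fell was 2, 2 or 1. Foxa1 and Onecut1 stood high in control replicate 3, at 48.2 and 25.8 CPM against 13.3 to 16.0 and 3.03 to 7.50 CPM in the other controls, and their log2 fold changes of -1.202 and -2.19 were -0.54 and -1.16 without it. Gpbar1, Fgf15 and Malrd1 had 0 counts in all libraries.

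Other transporters and canalicular proteins were divided, with 9 of 35 tested lower (25.7%, against 13% of all tested genes) and 7 higher (20%, against 13.3%). Their median log2 fold change was -0.04. Slc22a28, an organic anion carrier related to Slc22a7, had 38.6, 41.4, 53.3 and 28.7 CPM in controls and 1.29, 0.322 and 0.498 CPM in LPS mice (log2 fold change -5.74, SE 0.37, edgeR adjusted p = 2.99e-07), and its log2 fold change was -6.59 without LPS replicate 1. Slc22a30, of the same family, had 363, 312, 358 and 288 CPM in controls and 36.2, 27.1 and 26.3 CPM in LPS mice (log2 fold change -3.46, SE 0.18, edgeR adjusted p = 4.67e-08). Both were far lower in each LPS mouse. Dpp4, a peptidase of the canalicular membrane, was at 94.6 ± 7.43 CPM in controls and fell to 38.1 ± 2.39 CPM in LPS mice (SD, edgeR adjusted p = 1.65e-05). Relatives of Slc10a1, singled out after their values were seen, did not move together. Slc10a2, the sodium-driven bile acid carrier best known from ileum and bile ducts, had 17.6, 16.9, 42.2 and 18.7 CPM in controls and 58.3, 63.3 and 62.7 CPM in LPS mice (log2 fold change 1.37, SE 0.28, edgeR adjusted p = 0.00289). Slc10a6, a carrier of steroid sulfates, had 0, 0, 19 and 2 counts in controls and 116, 143 and 132 counts in LPS mice (log2 fold change 4.56, SE 0.80, edgeR adjusted p = 0.00111). Control replicate 3 was the highest control for both and lay below each LPS mouse, and without it the log2 fold change of Slc10a6 was 7.36. Slc10a5, an orphan carrier of the family, was lower, at 9.69, 7.70, 20.3 and 16.5 CPM in controls and 3.41, 5.80 and 8.84 CPM in LPS mice (log2 fold change -1.18, SE 0.37, edgeR adjusted p = 0.0327). Its groups overlapped, and the call was lost without control replicate 3 or 4 or LPS replicate 1 or 2 (log2 fold changes -1.16 to -0.89, edgeR adjusted p of 0.0708 to 0.112).

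Lists of markers of liver cell types were read beside the shares of all tested genes that fell (13%) and rose (13.3%). Of 19 tested hepatocyte markers 8 fell and 2 rose, with a median log2 fold change of -0.09, and their summed level was 92517, 91625, 112280.0 and 99246 CPM in controls and 62069, 69401 and 69517 CPM in LPS mice. Albumin (Alb) was the most abundant, at 37958, 37776, 61686 and 50492 CPM in controls and 24642, 24659 and 24693 CPM in LPS mice, and Tdo2, named after its values were seen, was among those that rose. All 8 tested of 10 neutrophil markers rose, with sums of 5.24, 4.04, 1.65 and 2.95 CPM in controls and 217, 159.7 and 159.7 CPM in LPS mice. Csf3r was the most abundant of them in controls and S100a9 in LPS mice, and Ly6g and Ngp, named after their values were seen, were at 0 in each control. Of 12 Kupffer cell and macrophage markers 6 rose and 1, Clec4f, fell, with sums of 180.0, 244, 233 and 149 CPM in controls and 823, 229 and 240.3 CPM in LPS mice, Clec4f also being the most abundant in controls and Marco in LPS mice. LPS replicate 1 had the highest sum, and Marco alone had 409.7, 66.5 and 65.6 CPM in LPS replicates 1 to 3. Cholangiocyte markers, led by Spp1, summed to 339.7, 173, 174 and 216 CPM in controls and 184, 263 and 246 CPM in LPS mice, and Sox9 was the 1 of 10 tested that rose, a share below that of all tested genes. Sinusoidal endothelial markers, led by Fcgr2b in controls and Pecam1 in LPS mice, summed to 212, 269.6, 168 and 209 CPM and 254, 152 and 143 CPM, with 2 of 12 higher (Lyve1 and Pecam1) and 2 lower (Clec4g and Kdr), or 16.7% each way, close to the shares of all tested genes. Stellate cell markers, led by Dcn, summed to 591, 427, 256 and 408 CPM and 348, 285 and 268 CPM, with 4 of 10 lower (Lrat, Reln, Ecm1 and Colec11). Sox9 and the endothelial and stellate markers that moved were likewise named after their values were seen. Mitochondrial transcripts took 23.7%, 14.6%, 7.48% and 8.96% of the counts in control replicates 1 to 4 and 6.45%, 3.83% and 3.94% in LPS replicates 1 to 3. What part shifts in cell types had in the lower levels of the members was not tested.

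Promoter sequences from RefSeq (build GRCm38.p6, 250 bases before to 50 bases after a transcript start) were on hand for 28 of the 39 members, matched by symbol, in 36 windows. No entry was on hand for Atp8b1, Slc47a1, Abcc3, Amacr, Abcc6, Baat, Slc22a7, Cyp7a1, Slc27a5, Cyp7b1 and Cyp39a1. The letters AGGTCA, a core hexamer of many nuclear receptor sites, occurred on either strand in 12 of the 36 windows, or 33.3%, and in 16.3% of the 32851 windows of all genes. The spaced palindrome TTCNNNGAA, which STAT factors can bind, was in 7 of 36 windows, or 19.4%, and in 8.3% of all windows. GTTAAT, a core of HNF1 sites, was in 1 of the 36 windows and in 7.1% of all windows, and CAAAGTCCA, a core read by HNF4A, was in 1 of the 36 and in 0.475% of all. All were searched on both strands, windows of 1 gene or of neighbours can overlap, as for Acox2 and for Abcg5 with Abcg8, and nothing was measured on binding. The windows of Slco1a1 (chr6:141946913-141947212, minus strand) and Abcb11 (chr2:69342567-69342866, minus strand) are shown because they had the lowest log2 fold changes of the uptake and canalicular members that fell and had an entry, and that of Cyp8b1 (chr9:121916256-121916555, minus strand) because it held the 1 HNF4A core. Capitals mark AGGTCA or its complement TGACCT in the windows of Slco1a1 and Abcb11 and CAAAGTCCA in that of Cyp8b1.

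Slco1a1 promoter: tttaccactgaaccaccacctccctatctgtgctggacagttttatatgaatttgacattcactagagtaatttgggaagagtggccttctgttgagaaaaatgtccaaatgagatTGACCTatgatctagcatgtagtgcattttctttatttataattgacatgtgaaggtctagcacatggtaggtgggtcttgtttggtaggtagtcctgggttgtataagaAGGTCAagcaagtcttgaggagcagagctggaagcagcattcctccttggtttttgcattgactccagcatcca

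Abcb11 promoter: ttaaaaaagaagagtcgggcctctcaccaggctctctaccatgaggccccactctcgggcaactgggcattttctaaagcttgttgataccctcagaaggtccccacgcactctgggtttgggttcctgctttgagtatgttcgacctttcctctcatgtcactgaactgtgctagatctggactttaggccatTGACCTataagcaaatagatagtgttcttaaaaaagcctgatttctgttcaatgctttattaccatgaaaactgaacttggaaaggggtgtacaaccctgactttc

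Cyp8b1 promoter: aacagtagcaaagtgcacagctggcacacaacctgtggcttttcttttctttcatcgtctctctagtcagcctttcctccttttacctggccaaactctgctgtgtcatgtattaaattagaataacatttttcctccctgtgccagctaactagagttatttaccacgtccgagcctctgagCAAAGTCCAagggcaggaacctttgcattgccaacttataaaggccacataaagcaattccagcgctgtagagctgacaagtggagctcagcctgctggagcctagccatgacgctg

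Abcg5 and Abcg8, which fell together, are neighbours that are read in opposite directions from a short common stretch. Their windows share 209 bases at chr17:84682962-84683170, printed for the plus strand, on which Abcg8 is read. None of the letters searched above occurred in it. AGATAA, the letters of a GATA site, were searched after the stretch had been read, and they or their complement TTATCT, in capitals, occurred 3 times. Over all genes 11.2% of the windows held them at least once and 35 of 32851 windows, or 0.107%, held them 3 times or more. Of the 36 member windows 2, or 5.56%, held them, those of Abcg5 and Abcg8. Because the letters were chosen after this stretch was read, these shares are no test of it.

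Abcg5 and Abcg8 shared promoter: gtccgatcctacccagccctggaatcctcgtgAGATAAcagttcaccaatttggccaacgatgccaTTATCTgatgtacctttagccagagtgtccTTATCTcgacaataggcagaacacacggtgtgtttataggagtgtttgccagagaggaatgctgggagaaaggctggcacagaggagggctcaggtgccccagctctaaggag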

How the data were processed

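Polyadenylated liver RNA was sequenced in strand-specific libraries. The authors deposited counts, whole numbers of reads per gene without normalization, and their processing notes name cutadapt 1.9.1, HISAT2 2.2.1, HTSeq 0.6.1, DESeq2 1.34.0 and build GRCm39. Whether counting used strand and how reads fitting several genes were treated are not given in the sources used here, so values of close paralogs are uncertain. All 7 libraries entered 1 fit in R 4.3.3 with edgeR 4.0.16 (filterByExpr, TMM factors, quasi-likelihood test of treatment with no other term, Benjamini-Hochberg adjustment over 13683 genes, threshold 0.05). SEs came from the F statistic. CPM per kb used union exon lengths from GENCODE M21, found for all 39 members. Depth was 14991022 to 20500391 counts, and the floor of 3 counts covers counting error only. Members and lists were chosen with earlier results of these data known. Each member was named, and other named genes were drawn from the 4 genes of smallest p from each other pathway list, Nr1h4, Nr0b2, Hnf4a, Nr5a2, and from each marker list the most abundant gene and those at 0 in every library. Alternatives were DESeq2 1.42.0, other scalings, filters and thresholds, the replicate number as a block, LPS replicates 2 and 3 summed, and each mouse left out. Stard1, Nherf1 and Tf had no row under these symbols. The 7 libraries came from control and LPS mice only, so the study's sulforaphane group is not covered here.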

Additional observations from a re-analysis of the deposited data

Results flagged for a closer look

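In 64 groups of 4 control mice, 1 for each member, each gene named by rule from the other pathway lists and the most abundant gene of each marker list in either group of mice, 2 held a mouse far from the rest, with a gap to its nearest neighbour that took up nearly the whole range, past Dixon's 95% limit for 4 values. Chance gives such a gap in about 1 of 20 groups. Slco1a4 was at 31.4 CPM in control replicate 2, where the other controls had 15.7, 16.6 and 17.8 CPM. Abcc4 was at 3.34 CPM in control replicate 4, where the other controls had 0.991, 1.04 and 1.33 CPM, a difference between 69 and at most 21 counts. The check was not run on the groups of 3 LPS mice. It also left out other genes, such as Foxa1, Onecut1, Slc10a2 and Slc10a6, in which control replicate 3 was the highest control.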

How the results depend on the processing

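The number of members that fell was 25 with DESeq2, with RLE factors, with total counts, with library sizes computed without the genes above 1% of counts and with at least 10 counts in every sample, and the genes were the same in these settings. Without a filter it was also 25, of which 24 were shared, with Cyp46a1 in place of Slco2b1. It was 19 at an adjusted p below 0.01, 16 with a log2 fold change beyond 1 required, 20 with LPS replicates 2 and 3 summed, and 20 to 25 without 1 mouse. Of the members that fell none changed sign in 15 refits.

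With DESeq2, and again without a filter, 3 members rose (Acox2, Cyp39a1 and Atp8b1), 1 of them a ring enzyme and 1 a canalicular gene. At an adjusted p below 0.01, 1091 genes rose and 993 fell, and 1 side chain gene, 3 uptake carriers and 1 regulator fell. With a log2 fold change beyond 1 required, 1068 genes rose and 1000 fell, 0 members and 0 side chain genes rose, and 16 members, 0 side chain genes, 3 uptake carriers, 2 regulators and 5 other transporters fell, while 1 regulator rose. These limits are stricter by construction. With LPS replicates 2 and 3 summed, 2 side chain genes, 3 uptake carriers and 1 regulator fell, 3 regulators rose, the calls of Hnf4a (edgeR adjusted p = 0.0533) and Nr0b2 (edgeR adjusted p = 0.0557) were lost, and the log2 fold change of Abcc4 was 0.049. With total counts that of Baat was -0.079. The cause was not tested.

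Without 1 mouse, 1146 to 1868 genes fell, as did 2 to 4 side chain genes, 3 to 5 uptake carriers and 1 to 5 regulators, while 1 to 3 members, 0 to 1 ring enzymes, 0 to 1 uptake carriers and 0 to 1 canalicular genes rose. The log2 fold change ran from -0.016 to 0.065 for Baat, from -0.14 to 0.075 for Slco2a1 and from -0.48 to 0.49 for Abcc4, all close to 0 or at low counts. The cause was not tested.

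The replicate numbers were checked for pairing, since a control and an LPS mouse share each of the numbers 1 to 3. Correlations of deviations from the group means were 0.166, -0.043 and 0.083 for pairs of the same number. For pairs of different numbers they ran from -0.168 (control replicate 3 with LPS replicate 1) to 0.112 (control replicate 3 with LPS replicate 2). These ranges overlap, and the numbers were not treated as pairs. With the replicate number as a block over 6 mice, 2 members rose (Acox2 and Cyp39a1), 1 of them a ring enzyme, 23 members and 3 uptake carriers fell, 5 regulators rose, Abcc1 lost its call (edgeR adjusted p = 0.0740), Nr5a2 passed the test (log2 fold change 0.49, edgeR adjusted p = 0.0393), and Abcc4 had a log2 fold change of 0.42. The same 6 mice without the block gave 21 members that fell. The cause was not tested.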
